A study of Mus musculus with 30 samples.

Results

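The comparison is that of proliferating C2C12-pMirn378 myoblasts with control C2C12-pMirn0 myoblasts at d0, before any differentiation or treatment. Its members are the 6 arrays labelled d0, 3 of each line, out of 30 arrays in the series, and they were chosen by their labels alone. C2C12 is a mouse myoblast line that fuses into myotubes at low serum and turns towards bone when bone morphogenetic protein 2 (BMP2) is added. C2C12-pMirn378 carries a lentiviral construct with the precursor of miR-378, and C2C12-pMirn0 carries the parent vector without it. Both vectors also express the fluorescent protein copGFP, and the copGFP-positive cells of each transduction were sorted once to give the line. Each line is thus a single sorted population, so that an effect of the microRNA and any other difference between these populations cannot be told apart. At d0 the cells had been plated in growth medium and cultured for a day, without BMP2. The later arrays of both lines used below were taken at d3 and d6, untreated or with 300 ng/ml BMP2, with 3 arrays in each of these groups.

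A microRNA is a short RNA that guides the silencing complex to matching sites in messenger RNAs, most often in their 3′ part, and lowers their stability or translation. MiR-378 is processed from an intron of *Ppargc1b*, a coactivator gene of oxidative metabolism, and its level is known to rise when myoblasts become muscle. Proliferating myoblasts express the determination factors *Myod1* and *Myf5* but only part of the contractile genes, and they secrete growth factors, chemokines and matrix proteins.

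The arrays report messenger RNA per probe set, a group of short probes along 1 transcript, and measure neither mature miR-378 nor copGFP, so that they hold no direct check of the overexpression. The host gene *Ppargc1b* had expression values of 528, 575 and 555 on the C2C12-pMirn0 arrays and of 591, 626 and 605 on the C2C12-pMirn378 arrays (log2 difference 0.14, SE 0.13, adjusted p = 0.706). The construct holds the precursor and not the gene, so these values do not bear on the label. Of 10 myoblast markers, 10 were above the median of all values and 0 differed between the lines by limma (4 at an unadjusted p under 0.05). *Myod1* had an average expression value (AEV, the mean of 3 arrays on the linear scale) of 2684 ± 39.3 (SD, n = 3) in C2C12-pMirn0 and 2979 ± 99.7 in C2C12-pMirn378. Its partner *Myf5* had 3090 ± 103 and 3166 ± 67.7.

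Markers of other cell types were read as summed levels per array. All 4 endothelial markers were dim. A probe set was dim if both group means of its log2 values lay below the log2 of the median of all values, 76.46. The summed level of these 4 markers ran from 103 to 194 in C2C12-pMirn0 and from 89.95 to 99.7 in C2C12-pMirn378. For 4 leukocyte markers the sums ran from 234 to 316 and from 249.8 to 324, where *Ptprc*, which defines leukocytes, was dim and the macrophage markers *Cd68*, *Csf1r* and *Adgre1* were near the median (AEVs of 66.5 and 77.8, 103.96 and 125, and 78.8 and 73.2). Of 6 fibroblast markers, 3 were above the median and 0 were called by limma (1 at an unadjusted p under 0.05), with sums of 15220 to 16970 and of 13870 to 15830. That sum is nearly all *Col3a1*, which myoblasts express too, and *Thy1* was dim. Sums of 5 myotube markers ran from 18200 to 18710 in C2C12-pMirn0 and from 15070 to 16450 in C2C12-pMirn378, without overlap, although 0 of the 5 genes were called by limma (2 at an unadjusted p under 0.05). The sums of 3 adipocyte markers ran from 150 to 237 and from 239.6 to 260.0, those of 4 osteoblast markers from 182 to 269.5 and from 174 to 221, and those of 3 neural markers, mostly the neurofilament gene *Nefl*, from 10160 to 10520 and from 8300 to 8817. Sums of the 10 myoblast markers ran from 36310 to 36610 in C2C12-pMirn0 and from 39530 to 41830 in C2C12-pMirn378. The myoblast, endothelial, myotube, adipocyte and neural sums thus did not overlap between the lines. Among all single probe sets 21% (9483) did not overlap either. The adipocyte ranges nearly met, with 1 of the 3 markers not dim, and 0 markers of any of these types were called. The part of such cells in the line difference was not tested.

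At d0, 226 of 45101 probe sets (0.501%) were lower expressed in C2C12-pMirn378 cells and 118 (0.262%) were higher expressed. Calls came from limma, fitted on all 30 arrays, and needed both an adjusted p-value below 0.005 and a change of at least 1.52-fold, or 0.6 on the log2 scale. The 6 values did not overlap between the lines in 225 of the lower and in 118 of the higher probe sets, which were selected on these values, and in 21% of all probe sets (9483). The median log2 difference was -1.03 among the lower and 0.92 among the higher, and 119 and 48 of them passed 2-fold. Over all probe sets the median was -0.04. Counted by gene, with each gene read from its brightest probe set, the balance was further to the lower side. Here 129 of 18194 genes (0.709%) were lower and 21 (0.115%) were higher. The 6 d0 arrays fitted alone had 4 residual degrees of freedom. In that fit 0 probe sets were called in either direction by limma (5519 at an unadjusted p under 0.05). With dim probe sets removed and trend and robust estimation, the same 6 arrays gave 182 calls again, counted over the 226 lower and 118 higher ones together. That alternative was chosen after seeing the data. The calls thus depend on how the spread is estimated. The balance of lower to higher calls also depended on the scale, as setting values under 50 to 50 gave 221 and 300 calls and fitting linear values gave 96 and 410. A bulk measurement cannot tell fewer cells of a kind from less RNA per cell.

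**Figure D1:**
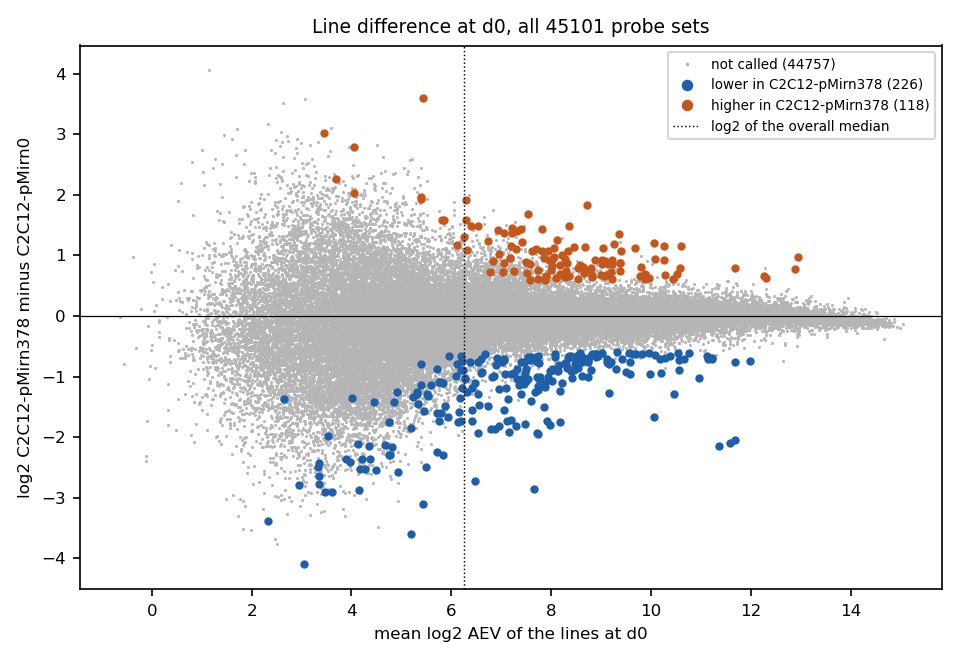
Log2 difference of C2C12-pMirn378 minus C2C12-pMirn0 at d0 (vertical axis) against the mean log2 AEV of both lines (horizontal axis) for all 45101 probe sets. Grey points were not called, blue points (226) were lower and orange points (118) were higher, and the dotted line marks the overall median, left of which the grey cloud widens.

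The arrays of a line correlated with each other between 0.988 and 0.99 on the log2 scale over the probe sets that were not dim, and arrays of different lines between 0.976 and 0.984. Replicate arrays varied by a median SD (log2) of 0.13 for 23165 probe sets that were not dim and of 0.78 for 21936 dim ones. Of the lower probe sets 43 were dim, and of the higher ones 4. As a sign of RNA integrity, the 3′ minus 5′ log2 difference of the *Gapdh* control probe sets lay between -0.28 and -0.23 in C2C12-pMirn0 and between -0.22 and -0.19 in C2C12-pMirn378. For the beta-actin controls it lay between 0.20 and 0.28 and between 0.21 and 0.27.

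A bright gene with a large fall was *Bgn*, which encodes biglycan, a small proteoglycan of the extracellular matrix. Its values were 5476, 5790 and 5411 in C2C12-pMirn0 and 1201, 1316 and 1245 in C2C12-pMirn378, a log2 difference of -2.15 (SE 0.08, adjusted p = 1.89e-13). The lines lie far apart and the arrays of each line close together, and all 3 probe sets of the gene were called. *Cdh11*, for the mesenchymal cell adhesion protein cadherin-11, was read at 632, 518 and 485 in C2C12-pMirn0 and at 75.6, 83.6 and 64.99 in C2C12-pMirn378. With -2.86 (SE 0.11, adjusted p = 1.89e-13) it was 7.28-fold lower, and its second probe set, although dim, was called lower as well. *Pdgfrb*, the beta receptor for platelet-derived growth factor on mesenchymal cells, fell from 1986, 1822 and 1945 to 596, 616 and 592 (log2 difference -1.67, SE 0.09, adjusted p = 4.56e-11).

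*Fbln5*, which encodes fibulin-5 of elastic fibres, fell from 222, 204 and 220 to 51.1, 42.2 and 15.8 (log2 difference -2.73, SE 0.25, adjusted p = 4.98e-07). The adhesion receptor gene *Adgrl2* fell from 416, 439 and 396 to 98.3, 96.2 and 132 (log2 difference -1.95, SE 0.10, adjusted p = 3.58e-11). In both genes the groups stand clear of each other, with more spread among the C2C12-pMirn378 arrays of *Fbln5*. Called were 1 of 2 probe sets of *Fbln5* and 2 of 3 of *Adgrl2*. *Gulp1*, an adaptor for the engulfment of dying cells, had a log2 difference of -1.81 with 3 of 3 probe sets called, and *Ctla2a*, a cysteine protease inhibitor gene next to its near-identical copy *Ctla2b*, had -1.79. Probes for such copies can bind both transcripts, so that the values of the pair are uncertain. *Apobec1*, an RNA-editing deaminase, had -1.76, *Cck*, for the peptide hormone cholecystokinin, -1.87 (a call lost without any 1 of 5 of the 6 arrays), and *Medag*, a gene linked to adipocyte formation, -1.93.

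A few falls were large because the C2C12-pMirn378 values were near the bottom of the scale. *Ranbp3l*, a relative of a nuclear export factor, was read at 113, 132 and 127 in C2C12-pMirn0 and at 7.39, 16.6 and 8.74 in C2C12-pMirn378, a log2 difference of -3.59. The inflammatory caspase gene *Casp4* was read at 94.6, 121 and 114 and at 36.5, 7.96 and 7.02, a log2 difference of -3.11. *Plek*, for pleckstrin, had -2.25. Setting every value under 50 to 50 left all 3 called, with log2 differences of -1.31, -1.13 and -1.17. On linear values *Ranbp3l* and *Casp4* lost their calls. For *Ranbp3l* 1 of 2 probe sets was called. For *Plek* 1 of 3 probe sets was called, and it was not the brightest.

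**Figure D2:**
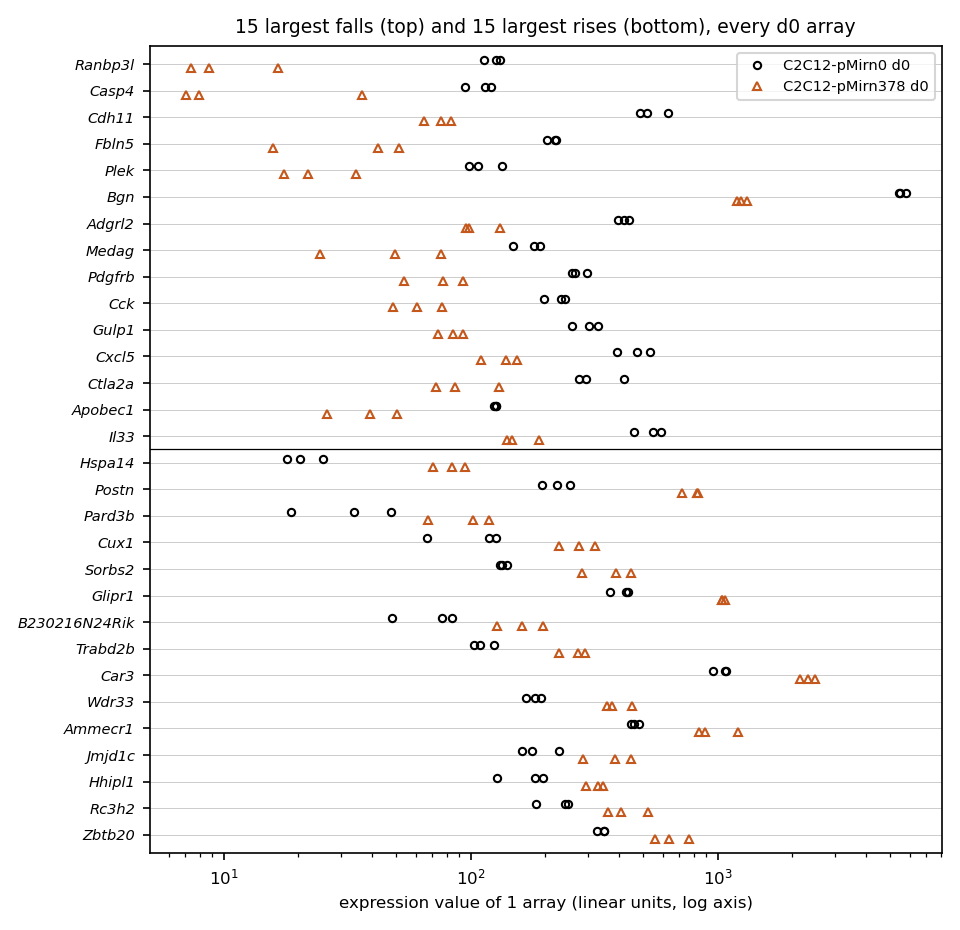
Expression value of each d0 array (linear units on a log axis) for the 15 genes with the largest fall and the 15 with the largest rise that were not dim. Circles are the 3 C2C12-pMirn0 arrays and triangles the 3 C2C12-pMirn378 arrays; they do not overlap in any of the 30 genes, as the naming rule asked.

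Cytokines and chemokines were among the lists with most calls, with 7 of 21 members lower and 0 higher. Over all 18194 genes 0.709% were lower and 0.115% higher, which is the background for each list count below. The median log2 difference of the list was -0.62, against -0.05 over all genes. *Il33*, for an alarm cytokine released by damaged cells, fell from 461, 549 and 589 to 147, 140 and 189 (log2 difference -1.75, SE 0.13, adjusted p = 2.21e-08). Among the neutrophil-attracting chemokines, *Cxcl5* fell from 535, 473 and 392 to 154, 109.7 and 139.6 (-1.80, adjusted p = 2.69e-06). *Cxcl1* fell from 334, 290.5 and 303 to 176, 133 and 158 in 1 of its 3 probe sets (-1.00, SE 0.14, adjusted p = 0.000108). The lines were well separated for each of these genes. *Cxcl12*, a homing signal for stem cells, had -1.25, the monocyte attractants *Ccl7* and the dim *Ccl5* had -1.23 and -2.90, and the membrane-bound *Cx3cl1* had -0.73. *Ccl2*, which attracts monocytes, was not called, with AEVs of 586 and 332 and a log2 difference of -0.83 (adjusted p = 0.0153), nor was *Csf1*, a macrophage growth factor, at -0.34 (adjusted p = 0.00962). With limma on linear values 4 members were called.

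The window from 250 bases before to 50 bases after the start of *Cxcl1* and of *Kitl*, a lower expressed growth factor gene, is shown because both hold the NF-kB motif, searched on both strands as GGGA, any 2 bases and TTCC. NF-kB is a transcription factor of inflammatory genes. The motif was found in the windows of 3 of 98 genes with a bright lower probe set that the RefSeq promoter table (GRCm38.p6) lists, 3.06%, against 387 of all 27025 windows, 1.43%, and in 1 of 33 windows of higher genes, 3.03%. The third lower gene is *Nab1* and the higher one is *Mal*. These are matches of letters and the binding of the factor was not measured. The sequences run 5′ to 3′ on the strand of the gene, here the plus strand, with the matched letters in capitals, where in *Cxcl1* the match on 1 strand overlaps that on the other.
Cxcl1, chr5:90890995-90891294: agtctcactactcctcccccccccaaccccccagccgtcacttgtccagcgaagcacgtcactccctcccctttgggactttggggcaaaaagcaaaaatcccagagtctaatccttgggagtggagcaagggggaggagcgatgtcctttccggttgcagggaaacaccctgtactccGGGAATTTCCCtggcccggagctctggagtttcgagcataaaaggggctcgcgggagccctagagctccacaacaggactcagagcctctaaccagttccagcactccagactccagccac
Kitl, chr10:100015571-100015870: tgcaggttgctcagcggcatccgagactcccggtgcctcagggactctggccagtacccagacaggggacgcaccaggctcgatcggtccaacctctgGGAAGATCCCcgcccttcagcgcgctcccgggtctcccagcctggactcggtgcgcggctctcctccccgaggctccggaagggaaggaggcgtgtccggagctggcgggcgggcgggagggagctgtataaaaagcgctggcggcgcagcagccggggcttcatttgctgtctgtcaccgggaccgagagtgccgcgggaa

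Growth factors and their receptors showed the same direction, with 7 of 31 lower, 0 higher and a median of -0.44. Below 0 were 25 of 31, against 10594 of 18194 over all genes. *Fgf7*, a fibroblast growth factor that acts on epithelia, fell from 380, 481 and 461 to 155, 107 and 136 (log2 difference -1.74, SE 0.16, adjusted p = 6.55e-07). *Ptn*, for the heparin-binding factor pleiotrophin, fell from 251, 217 and 217 to 84.8, 91.2 and 59.8 (-1.56, adjusted p = 1.98e-06). *Hgf*, which activates muscle stem cells through the receptor Met, fell from 237, 239 and 255 to 134, 91.1 and 134 (-1.05, SE 0.16, adjusted p = 0.000319). Both lines were tight for *Angpt1*, a ligand of the endothelial receptor Tie2, at 1019, 1099 and 1114 against 564, 529 and 563 (-0.96, adjusted p = 8.46e-05).

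*Kitl*, which encodes the ligand of the receptor Kit, fell from 688, 752 and 817 to 499.9, 433 and 382 (-0.78, SE 0.12, adjusted p = 0.00058). *Ereg*, for the EGF-type ligand epiregulin, was close to the threshold, at 998, 1025 and 1063 against 703, 605 and 690.4 (-0.63, SE 0.11, adjusted p = 0.00186), and lost its call without any 1 of 5 of the 6 arrays. *Pdgfrb* completes the 7 calls. *Egfr*, the receptor of EGF-type ligands, had 2 of 7 probe sets called lower (-1.37, adjusted p = 3.04e-07, and -1.48, adjusted p = 2.76e-05), but its brightest one, which stands for it in the list, had -0.61 (adjusted p = 0.0776). *Met* itself had AEVs of 2032 and 1924 (-0.08, adjusted p = 0.839) and *Fgfr1* of 1273 and 1244 (-0.03, adjusted p = 0.923). *Bdnf*, a neurotrophin, passed the test but not the size limit, at -0.56 (adjusted p = 7.2e-05).

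In BMP signaling 4 of 27 genes were lower and 0 higher, and the calls were in ligands and secreted modulators. The antagonist *Grem1*, for gremlin, fell from 2453, 3188 and 2954 to 1283, 1574 and 1371, a log2 difference of -1.02 (SE 0.13, adjusted p = 3.07e-05). The modulator *Bmper* fell from 453, 292 and 392 to 167, 204 and 162 (-1.08, adjusted p = 0.000451). The activin antagonist *Fst*, for follistatin, fell from 738, 736 and 665 to 434, 425 and 450.3 (-0.71, SE 0.07, adjusted p = 1.68e-06). The ligand *Bmp4* was dim, at 45.9, 114 and 72.6 against 21.9, 33.9 and 19.4 (-1.57, adjusted p = 0.000232). The receptor *Bmpr1a* had AEVs of 2244 and 2107, the signal transducer *Smad1* 2016 and 1943, and the target *Id1* 5786 and 5662, with log2 differences of -0.09, -0.05 and -0.03 (adjusted p = 0.763, 0.772 and 0.881). The median of the list was -0.03, and with limma on linear values 1 of the 4 calls was made.

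Of 31 genes of Wnt signaling 2 were lower. *Wnt10a*, for a canonical Wnt ligand, fell from 243, 357 and 339.7 to 145, 139.6 and 169.8 (log2 difference -1.03, SE 0.17, adjusted p = 0.000786). *Wnt5a*, for a non-canonical ligand, was dim in both lines, at 21.5, 36.7 and 26.4 against 5.18, 6.36 and 1.48 (-2.91, adjusted p = 0.000489), and with values under 50 set to 50 its difference was 0. Without replicate 2 of C2C12-pMirn0, 0 genes of this list were called, and without replicate 2 of C2C12-pMirn378, 1 was. *Wnt5a*, *Wnt10a*, *Grem1*, *Fgf7*, *Ereg* and *Cck* are the genes that the study names for d0. All 6 were lower, but they were picked on these arrays and are not independent evidence of a direction. In the list of TGF-beta and activin genes 1 of 14 was called, *Tgfb2*, a TGF-beta ligand, which rose from 472, 454 and 517 to 784, 733 and 686 (0.61, adjusted p = 0.000105), and whose call was lost without replicate 1 of either line or replicate 2 of C2C12-pMirn0.

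Collagens and other matrix proteins moved in both directions, with 4 of 40 lower, 3 higher and a median of -0.06. Beside *Bgn* and *Fbln5*, the lower ones were *Col6a1* and *Col6a2*, neighbouring genes for chains of the microfibrillar collagen VI. *Col6a1* fell from 309, 281 and 349.5 to 105, 121 and 129 (log2 difference -1.40, SE 0.09, adjusted p = 1.81e-09), and *Col6a2* had -0.99 (SE 0.11, adjusted p = 7.29e-06). The third chain, *Col6a3*, had AEVs of 6764 and 6429 (-0.07, adjusted p = 0.778). *Postn*, for periostin, a matricellular protein of periosteum and healing tissue, rose from 252, 194 and 223 to 829, 834 and 718 (1.84, SE 0.09, adjusted p = 1.69e-11). *Ccn2*, or connective tissue growth factor, rose from 5835, 5941 and 5581 to 10219, 9762 and 9699 (0.77, SE 0.07, adjusted p = 1.02e-06).

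The basement membrane chain *Col4a1* rose from 4361, 3811 and 4008 to 6562, 5827 and 6499 (0.63, adjusted p = 0.000378). Its partner *Col4a2* had 0.46 (adjusted p = 0.00377) and stayed under the size limit. The main structural genes did not pass, as *Col1a2* had AEVs of 13164 and 12035, *Col3a1* of 15400 and 14424 and *Fn1*, for fibronectin, of 20734 and 20226 (adjusted p = 0.595, 0.621 and 0.92).

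Among 30 genes of cell adhesion, *Pcdh18*, a protocadherin, at -1.14 and *Alcam*, an immunoglobulin-type adhesion receptor, at -0.73 were lower beside *Cdh11*, whereas *Cdh15*, the cadherin of myoblasts, had AEVs of 3478 and 3976 (0.20, adjusted p = 0.462) and *Cdh2* of 4377 and 4124. The call of *Alcam* was lost without any 1 of the 6 arrays and that of *Pcdh18* without replicate 3 of C2C12-pMirn0. Of 21 matrix proteases and inhibitors, *Mmp2*, a gelatinase, fell by 0.67 and *Mmp19* fell by 1.09 on the log2 scale, and these calls were lost without replicate 1 of C2C12-pMirn0 and without replicate 3 of C2C12-pMirn378. Of 29 axon guidance genes, the cue *Slit2* was lower (-0.70, adjusted p = 1.54e-05) and the semaphorin receptor *Plxnd1* higher (0.72, adjusted p = 0.00102), a call lost without replicate 2 of C2C12-pMirn0 or replicate 3 of C2C12-pMirn378. In the list of 18 oxidative stress and glutathione genes *Mgst1*, a membrane glutathione transferase, and the metallothionein gene *Mt2* were lower, with log2 differences of -1.51 and -0.70, and the call of *Mt2* was lost without any 1 of 5 of the 6 arrays.

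Rises were smaller and of a different make-up. Of the 118 higher probe sets 61 (51.7%) carried no single gene symbol, against 26 of the 226 lower ones (11.5%) and 14.2% of the probe sets that were not dim. The named ones belong to 48 genes, but in only 21 genes was the brightest probe set called. Other bright probe sets of the genes with a bright call numbered 96 for the higher genes, of which 78 were above 0 with a median of 0.24, and 97 for the lower genes, of which 80 were below 0 with a median of -0.24.

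C2C12-pMirn378 replicate 3 was the highest of its 3 arrays in 90 of the 118 higher probe sets, replicate 1 in 12 and replicate 2 in 16, while over all probe sets that were not dim these shares were 38.5%, 29.6% and 31.9%. In the 226 lower probe sets the same array was the lowest in 79, as was replicate 1, and replicate 2 was in 68. Without replicate 3 of C2C12-pMirn378 47 probe sets were called higher, 45 of them among the 118, and 192 were called lower, 158 of them among the 226. Leaving out replicate 2 or 3 of C2C12-pMirn0, or replicate 2 of C2C12-pMirn378, gave 69, 73 and 74 higher probe sets. The part of these arrays in the rises was not tested further.

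*Car3*, for a carbonic anhydrase that is abundant in slow muscle and fat, rose from 1073, 1077 and 958 to 2322, 2146 and 2474, a log2 difference of 1.16 (SE 0.08, adjusted p = 3.84e-09). *Glipr1*, a gene linked to p53, rose from 436, 368 and 425 to 1067, 1037 and 1041 (1.36, SE 0.17, adjusted p = 2.89e-05). *Sorbs2*, an adaptor of the actin cytoskeleton and Z-discs, was read at 132, 134 and 141 and at 282, 388 and 448 (1.43, adjusted p = 1.07e-05). These 3 and *Postn* were also called without replicate 3 of C2C12-pMirn378. Of *Car3*, *Glipr1* and *Sorbs2*, 2 of 4, 1 of 2 and 1 of 4 probe sets were called, and the values given are not those of the brightest probe set. *Ttn*, the giant sarcomere protein titin, rose from 3932, 3841 and 3912 to 5911, 5534 and 7155 (0.66, adjusted p = 0.000124) and lost its call without replicate 3.

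*Hspa14*, a chaperone gene, with 1 of 3 probe sets called, had 25.4, 20.3 and 18.1 against 95, 83.8 and 70.4 (1.97, adjusted p = 0.00151), while its brightest probe set had -0.11 (adjusted p = 0.623). Its call was lost with trend and robust estimation and without any 1 of 4 of the 6 arrays. The polarity gene *Pard3b* and the homeobox gene *Cux1*, with 1 of 3 and 2 of 9 probe sets called, had log2 differences of 1.59 and 1.44. That of *Pard3b* was not called after quantile normalization, with values under 50 set to 50, on linear values or without any 1 of 4 of the 6 arrays. The other genes among the 15 largest rises lay between 0.93 for *Zbtb20*, a transcriptional repressor with 3 of 9 probe sets called, and 1.24 for *B230216N24Rik*. Among genes with a bright call and more than 1 bright probe set, 24 of 70 lower and 8 of 39 higher genes had more than 1 of them called. Of single genes, 1 of 2 probe sets was called lower for *Fst*, *Angpt1*, *Mgst1*, *Mmp2* and *Mmp19*. It was 1 of 3 for *Slit2* and *Pcdh18* and 1 of 4 for *Wnt5a*, and *Tgfb2* had 1 of 4 called higher.

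Regulators of the muscle programme held no call. Of 20 myogenic regulators 0 were called (4 at an unadjusted p under 0.05 by limma). *Myog*, for myogenin, the factor of terminal differentiation, was read at 4099.8, 3934 and 4236 in C2C12-pMirn0 and at 3101, 3469.6 and 3402 in C2C12-pMirn378, without overlap but with a log2 difference of only -0.30 (SE 0.08, adjusted p = 0.0283). Of 35 muscle structure genes 1 was lower, *Actn2*, for sarcomeric alpha-actinin, at -0.89, a call lost without any 1 of 5 of the 6 arrays, and 1 was higher, *Ttn*. Of 35 cell cycle genes 0 were called (1 at an unadjusted p under 0.05), with a median of 0.06 and differences between -0.15 and 0.33.

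Among 15 measured genes that have been reported as targets of miR-378, 0 were called by limma (4 at an unadjusted p under 0.05), 8 were below 0 and the median was -0.01. Over all 18194 genes 10594 were below 0. *Msc*, for musculin, a repressor of myogenesis, was read at 321, 397 and 319 in C2C12-pMirn0 and at 461, 399.6 and 433 in C2C12-pMirn378 (log2 difference 0.32, SE 0.29, adjusted p = 0.666). These values did not overlap. The SE pools the spread of all 10 groups, and the *Msc* AEVs of the BMP2 groups, between 8.24 and 13.27, were near the bottom of the scale. *Npnt*, for the matrix protein nephronectin, was read at 4846, 3972 and 4595 and at 5820.0, 5426 and 5928 (0.36, SE 0.08, adjusted p = 0.0129). *Galnt7*, a glycosyltransferase gene, had AEVs of 1487 ± 174 and 1166 ± 118 (SD, n = 3; -0.35, adjusted p = 0.127), *Igf1r* of 769.6 ± 48.9 and 860.1 ± 38.3, and *Grb2* of 1543 ± 198 and 1410 ± 155 (SD, n = 3). Arrays do not see a block of translation, and a p above the threshold does not show that the level was the same.

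In the remaining lists 0 genes were called by limma. The 16 cholesterol synthesis genes had a median of -0.23 with 12 below 0 (10 at an unadjusted p under 0.05), led by *Msmo1* at -0.43 (adjusted p = 0.0188). The 18 genes of microRNA processing had a median of 0.15 with 14 above 0 (6 at an unadjusted p under 0.05). The 27 interferon response genes had a median of -0.03 (5 at an unadjusted p under 0.05). Of 11 fibroblast genes 10 were below 0 with a median of -0.37 (3 at an unadjusted p under 0.05), among them *Mfap5*, a microfibril protein, with AEVs of 106 and 63.1 (-0.77, adjusted p = 0.00608). Over all 18194 genes 10594 were below 0 and 7600 above 0, with a median of -0.05. *Bgn*, *Col6a1* and *Pdgfrb* were lower in the same arrays, whereas *Postn*, *Ccn2* and *Col4a1* were higher and *Col3a1* was not called. The part of fibroblast-type cells in these values was not tested.

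The other signaling lists stayed near the middle, with medians of 0.02 for 13 Notch genes (3 at an unadjusted p under 0.05), -0.01 for 12 genes of the IGF system (4), 0.10 for 14 MAPK feedback genes (5) and 0.01 for 18 AP-1 and immediate early genes (6). Among the stress and metabolic lists the medians were -0.04 for 20 unfolded protein and amino acid stress genes (3), 0.03 for 22 hypoxia and glycolysis genes (5), -0.09 for 28 mitochondrial energy genes (5) and -0.06 for 18 CDK inhibitors and p53 targets (6). The tissue lists had medians of -0.11 for 14 bone genes (2), 0.02 for 18 smooth muscle and actin cytoskeleton genes (6), 0.02 for 15 adipogenic genes (5) and -0.11 for 25 HOX genes (4). Of the marker lists, 10 leukocyte and macrophage genes had -0.20 (1), 8 neural and glial genes -0.21 (2) and 8 endothelial genes, all dim, -0.76 (2). Each number in parentheses counts the members at an unadjusted p under 0.05.

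**Figure D3:**
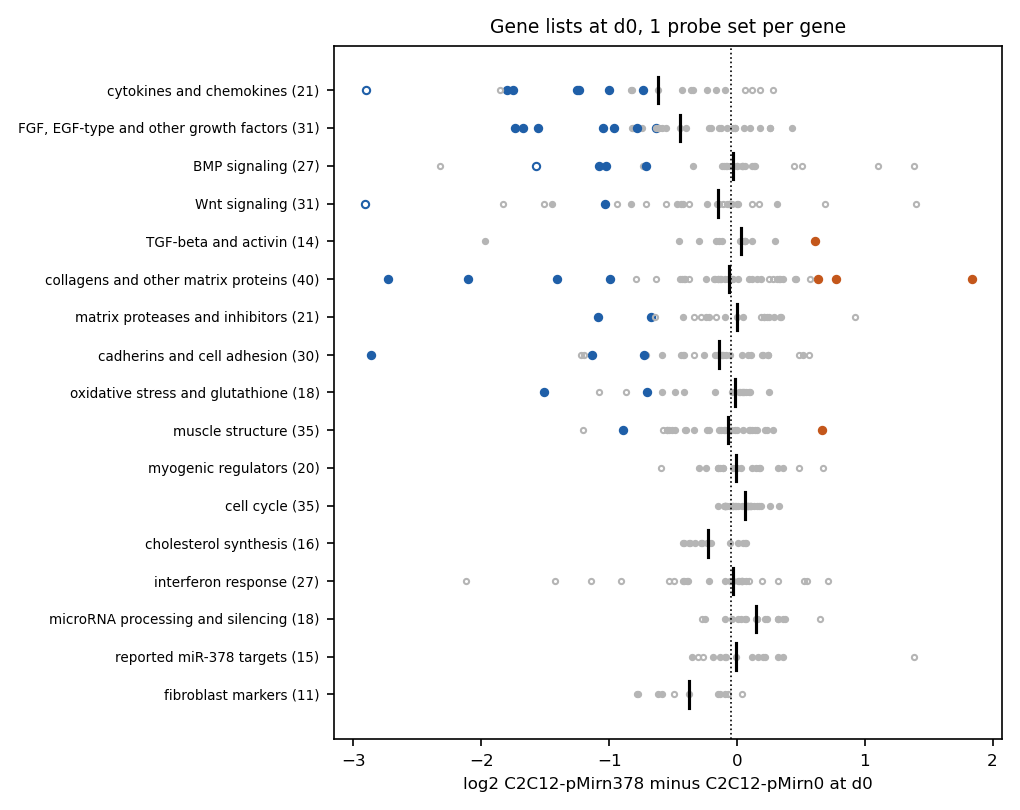
Log2 difference at d0 for the members of 17 gene lists, 1 probe set per gene, with the number of measured genes in parentheses. Blue and orange points were called lower and higher, grey points were not called, open points were dim, the short bar is the median of the list and the dotted line the median of all genes (-0.05); the cytokine and growth factor medians lie at -0.62 and -0.44.

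Among the 43 lower dim probe sets, the 5 genes with the smallest adjusted p included *Slc26a7*, an anion exchanger gene, at 31.8, 22.8 and 21.7 against 5.82, 4.50 and 1.91, and *Ms4a4d* at 47.7, 54.1 and 43.6 against 10.6, 18.7 and 15.1. The others were *Abca8a* and *Clip4*, with log2 differences of -1.42 and -2.53, and the second probe set of *Cdh11* at -2.17. The only dim gene with a symbol among the rises was *Gm36741*, at 2.62, 7.96 and 1.55 against 44.2, 12.5 and 31.6 (3.03, adjusted p = 0.000911). With values under 50 set to 50, none of these 6 probe sets kept its call.

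The later arrays compare the same lines in other cultures, after a change to medium with less serum. By PCR, the study reports that the fold excess of miR-378 in C2C12-pMirn378 was smaller at d3 and d6 than at d0. The part of either in the later line differences was not tested. At d3 untreated, where 0.186% of all probe sets were lower and 0.233% higher, 174 of the 226 probe sets lower at d0 were below 0, with a median log2 difference of -0.27, and 29 were called lower again while 1 was called higher. Over all probe sets 46.3% were below 0 at that time. At d6 untreated, where 0.0532% of all were lower and 0.106% higher, 95 of the 226 were below 0 with a median of 0.04, 8 were called lower and 14 were called higher. The share below 0 over all probe sets was 42.6% at that time, against 42% of the 226. The 14 include both called probe sets of *Hgf* (0.92 and 1.23), *Cxcl12* (1.11 and 1.21), *Cadm1* (0.79 and 0.95) and *Alcam* (0.85 and 0.87), and the interleukin-1 receptor antagonist *Il1rn* (1.38).

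With BMP2, more of the line differences of d0 were called again, among more calls overall. At d3 with BMP2, where 1.46% of all probe sets were lower and 1.61% higher, 56 of the 226 were called lower and 8 higher. At d6 with BMP2, where 0.836% were lower and 0.993% higher, the counts were 29 and 20. Of the 118 higher probe sets only 1 was called higher and 2 lower at d3 untreated, and 1 and 0 at d6 untreated. With BMP2 the counts were 4 higher and 4 lower at d3, and 12 and 2 at d6. Their medians at the later times lay between 0.00 at d3 untreated and 0.13 at d6 with BMP2.

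Among the 226 lower probe sets 3 were lower at all 4 later points and 150 at none. The 3 were both probe sets of *Cdh11*, with log2 differences from -1.11 at d6 untreated to -2.13 at d3 untreated for the brighter one, and the dim *Ms4a4d*. *Cd24a*, for a small membrane glycoprotein, was lower at d0 (-1.10) and at d3 and d6 untreated (-1.20 and -1.64). *Slit2*, *Mmp2* and *Selenop*, the plasma carrier of selenium, were lower at d0 and at d3 untreated, where they had -0.69, -1.28 and -1.00. The 1 probe set that was higher at d0 and at all 4 later points is that of *4930550L24Rik*, with 0.73 at d0 and 1.04 at d3 untreated.

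**Figure D4:**
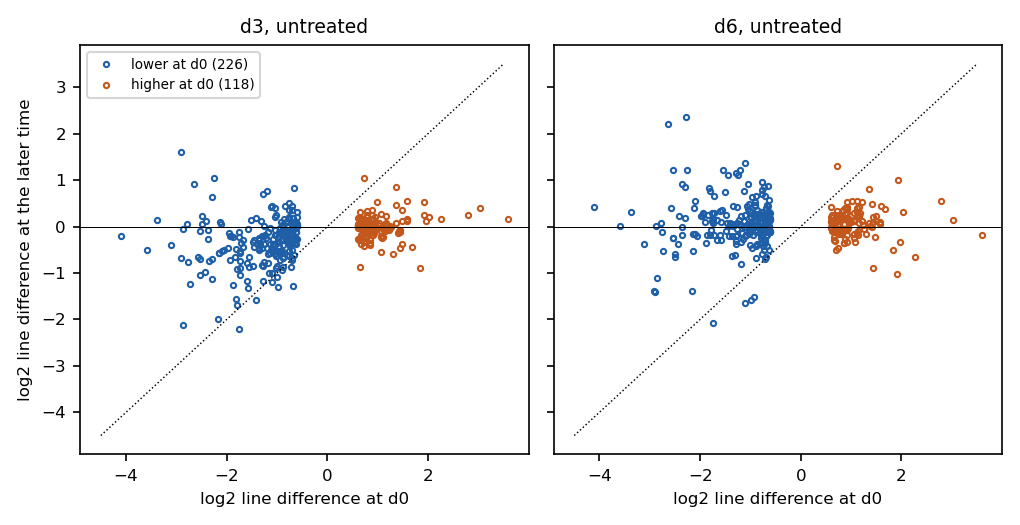
Log2 line difference at d3 untreated (left) and d6 untreated (right) against that at d0 for the 226 lower (blue) and 118 higher (orange) probe sets, with the dotted line marking equal differences. Most points lie nearer to 0 at the later times, with a median of -0.27 at d3 and 0.04 at d6 for the lower probe sets.

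Whether the line difference itself changed was tested by the difference of line differences, d3 untreated minus d0. It was called above 0 in 0.244% of all probe sets and below 0 in 0.113%. Of the 226 lower probe sets 47 had a called change towards 0, and of the 118 higher ones 25. As the sets were chosen on the d0 arrays that this test also uses, a shift towards 0 is partly built in. *Bgn* went from a log2 difference of -2.15 at d0 to -0.58 at d3 untreated (change 1.57, adjusted p = 6.94e-08), while its AEV rose from 5559 ± 203 to 12883 ± 977 in C2C12-pMirn0 and from 1254 ± 57.8 to 8623 ± 558 in C2C12-pMirn378 (SD, n = 3). *Pdgfrb*, *Adgrl2*, *Il33*, *Mgst1* and *Col6a1* had changes of 1.23, 1.81, 1.52, 1.66 and 1.04.

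*Postn* turned over, from 1.84 at d0 to -0.89 at d3 untreated (change -2.73, adjusted p = 3.06e-11). Its AEVs at d3 untreated were 1101 ± 53.3 in C2C12-pMirn0 and 594 ± 66.4 in C2C12-pMirn378 (SD, n = 3), and at d6 with BMP2 they were 10891 ± 191 and 19878 ± 811, again higher in C2C12-pMirn378. *Grem1* went from -1.02 at d0 to 0.24 at d3 untreated (change 1.26, adjusted p = 0.000409), but stood at -1.09 at d3 with BMP2, with AEVs of 1032 ± 28.7 and 487 ± 64 (SD, n = 3). *Ctla2a* was unlike these, with -1.79 at d0 and -1.70 at d3 untreated (change 0.09, adjusted p = 0.956), and with AEVs of 1902 ± 279 and 1800 ± 99.4 (SD, n = 3) at d6 untreated.

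**Figure D5:**
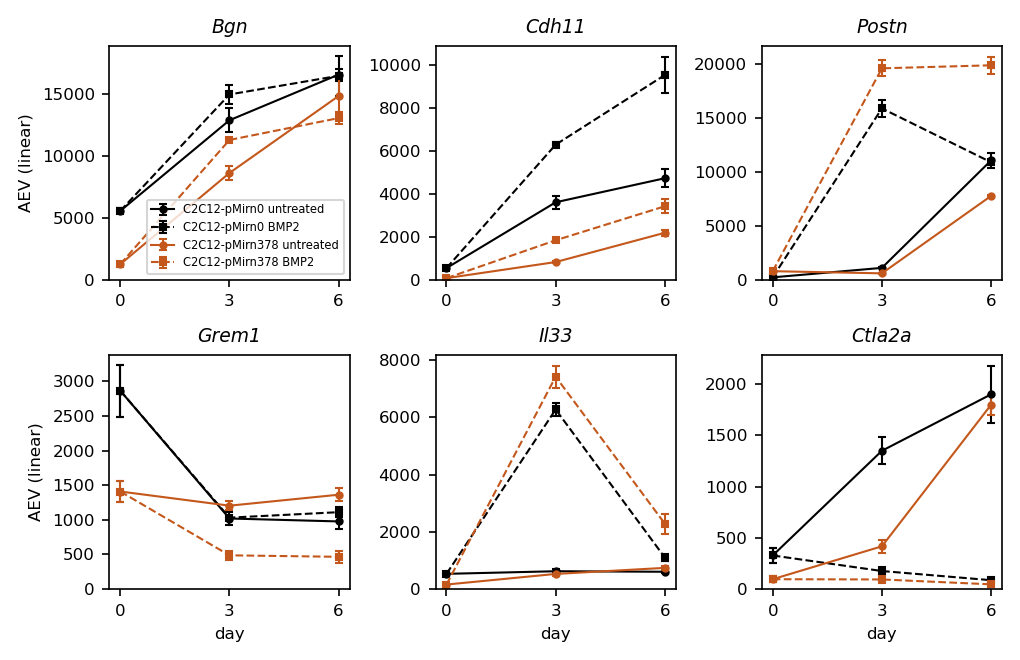
AEV (linear scale, mean of 3 arrays with SD) of 6 genes by day, in C2C12-pMirn0 (black) and C2C12-pMirn378 (orange), untreated (solid) or with BMP2 (dashed). *Bgn* and *Il33* start apart at d0 and lie closer at d3 untreated, *Cdh11* stays lower in C2C12-pMirn378 throughout, and *Postn* changes order between d0 and d3 untreated.

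Genes that differed between the lines at d0 included many that were BMP2-responsive in control cells, a contrast of d3 arrays that shares with the d0 calls the spread estimated over all 30 arrays. In C2C12-pMirn0 at d3, BMP2 against untreated gave 8.63% of all probe sets higher and 6.75% lower. Of all probe sets 48.6% were dim, against 43 of the 226 lower and 4 of the 118 higher ones. Shares over the probe sets that were not dim were not computed, so the shares below are not compared with a like background. Of the 226 lower probe sets 82 (36.3%) were higher with BMP2 and 55 (24.3%) lower. Of the 118 higher ones 37 (31.4%) were higher and 24 (20.3%) lower, so that both directions of response were common in both sets. *Il33* and *Fgf7*, lower in C2C12-pMirn378 at d0, had log2 BMP2 responses of 3.34 and 2.69 in control cells, and *Postn* and *Car3*, higher at d0, had 3.85 and 3.69.

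Some of the lower genes are neighbours on their chromosome. Of 168 genes with a lower probe set and a place in the gene table, 19 (11.3%) had another among the 2 measured genes on either side, against 3.57% of all 18146 placed genes that had such a neighbour. They are *Col6a1* and *Col6a2*, *Ctla2a* and *Ctla2b*, the complement genes *C1ra* and *C1s1*, the inflammatory caspases *Casp4* and *Casp12*, the chemokines *Ccl5* and *Ccl9*, and *Egfr*, *Plek*, *Cnrip1*, *Epdr1*, *Sfrp4*, *Slc1a3*, *Ranbp3l*, *Il12a* and *Ift80*. Several of these are tandem copies of 1 family, whose probes can share signal. Of 47 higher genes 2 (4.26%) had such a neighbour, *Wdr33* and *Ammecr1l*, against 1.03% of all placed genes.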

How the data were processed

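RNA of 30 samples was hybridised to Affymetrix Mouse Genome 430 2.0 arrays. Per the methods of the study and the submitters' processing notes, the authors quantified the scans with the Command Console and summarised probe sets with RMA and quantile normalization in R 2.4.1. The deposited unit is a linear intensity per probe set and array, for 45101 probe sets, without detection calls, and the array medians differ (70.5 to 82.7 at d0). The columns thus do not share 1 distribution, as quantile normalization would give, and the reason is not given in the sources used here. The number of arrays limits the precision. The 3 samples of a group are replicate cultures of 1 line, so that p-values measure spread among cultures and not among lines. The fit estimates this spread per probe set over all 10 groups.

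Here the log2 of each value was taken as deposited. limma 3.58.1 in R 4.3.3 fitted the means of all 10 groups (20 residual and 1.2 prior degrees of freedom), with eBayes and Benjamini-Hochberg adjustment within each contrast over all probe sets, and was tested on simulated data. Calls used the thresholds of the study, 0.005 for the adjusted p-value and 0.6 for the size of the log2 difference. Symbols came from the platform table (34958 probe sets with 1 symbol, 932 with several, 9211 with none). In lists, the brightest probe set over 30 arrays stood for a gene. Dim probe sets had both d0 means, taken on the log2 scale, below the median of all values.

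The members, the 34 lists and the tests were chosen with earlier results of these data known. Named were the 15 largest rises and falls (1 symbol, not dim, no overlap, not _x_at), the genes the study names for d0 or as targets, up to 4 called members per list, and the 5 dim calls with the smallest adjusted p per direction. Other genes were named after their values were seen. Alternatives were a replicate block, fewer groups in the fit, trend and robust estimation, array weights, 2 normalizations, an offset of 16, a floor of 50, a filter on dim probe sets, linear values, and leaving out each array.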

Additional observations from a re-analysis of the deposited data

Results flagged for a closer look

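The values below are changes in the line difference, that is the log2 difference between C2C12-pMirn378 and C2C12-pMirn0 at d3 untreated minus that at d0, and each passed limma's test of this change. The genes were named for their d0 values, and the test uses the same d0 arrays, so that a change towards 0 is partly built in. The change was upwards for genes lower at d0, with 3.10 for *Ranbp3l*, 3.29 for *Plek*, 1.57 and 1.58 for 2 probe sets of *Bgn*, 1.81 for *Adgrl2*, 1.69 and 1.23 for 2 probe sets of *Pdgfrb*, 1.33 for *Gulp1*, 1.63 for *Apobec1*, 1.52 for *Il33*, 1.26 for *Grem1*, 1.04 for *Col6a1*, 1.66 for *Mgst1* and 1.06 for *Mt2*. It was downwards for genes higher at d0, with -2.73 for *Postn*, -1.55 for *Sorbs2*, -1.30 for *Trabd2b*, -0.94 for *Car3*, -1.17 for *Wdr33*, -1.60 for *Ammecr1* and -0.64 for *Tgfb2*.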

How the results depend on the processing

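The 226 lower calls at d0 lay between 204 and 261, and the 118 higher ones between 100 and 171, under the replicate block, trend and robust estimation, array weights, 2 other normalizations, an offset and removal of dim probe sets. Fitting only the groups of the comparison gave 0 lower and 0 higher, and 0 of the d0 calls called the same way at each later point, with 7 called changes from d0 to d3 untreated. That fit has few degrees of freedom. In an alternative chosen after seeing the data (the 6 d0 arrays, dim probe sets removed, trend and robust estimation) 119 were lower and 128 higher. A floor of 50 gave 300 higher. Linear values gave 96 lower and 410 higher, and 7, 4, 28 and 26 of the d0 calls called again at d3 and d6 untreated and at d3 and d6 with BMP2, against 30, 9, 60 and 41. The 161 called changes from d0 to d3 untreated became 245 with trend and robust estimation, 379 with the floor, 252 without dim probe sets and 307 on linear values. Leaving out 1 array gave 162 to 203 lower, 47 to 107 higher and 98 to 152 called changes. The lowest of these came without replicate 3 of C2C12-pMirn378 at d0 for the higher calls, and without replicate 1 or 2 of C2C12-pMirn0 at d3 untreated for the changes. The cause of these shifts was not tested.

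Of 62 called probe sets among those named by rule, 0 were called under every alternative, since the fit of the 6 arrays lost them all, and 12 were lost without replicate 3 of C2C12-pMirn378. None of these 62 turned its sign under these alternatives, which were not run for the single genes named outside the rule. Of the genes not called, *Crat* had 0.0011 with array weights, 0.00035 with centred arrays, 0.0017 with quantile normalization and 0.00010 on linear values, and -0.12 to 0.061 without 1 array. *Gabpa* had -0.14 to 0.0077 and *Esrrg* -0.47 to 0.12 without 1 array. The main fit did not pair samples by replicate number. At d0, deviations of same-numbered arrays from their group means correlated at 0.083, 0.06 and -0.045. The best partner of C2C12-pMirn0 replicates 1 and 2 was the same-numbered C2C12-pMirn378 array, and that of replicate 3 was replicate 2. With 3 arrays per group, these values cannot tell whether same-numbered arrays shared an experiment. With the replicate block 221 were lower (210 of them shared) and 113 higher (106 shared), and 146 changes were called. Signal over background limits the dim probe sets, whose replicates spread most.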
